A study of Mus musculus with 144 samples.

Results

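Mesangial cells sorted from the glomeruli of wild-type mice were followed over 3 ages, with 8 libraries at 6 weeks, 8 at 12 weeks and 7 at 18 weeks. These 23 libraries, of 144 in the series, were taken by their labelled cell type, genotype and age, so no measured value chose them. Females and males made 4 libraries each at 6 and 12 weeks. At 18 weeks there were 3 libraries from females and 4 from males, and a library numbered female 1 was not analysed here. All mice were BTBR +/+ (WT) podocyte-reporter animals. They carried the mT/mG reporter at Gt(ROSA)26Sor and a transgene in which a podocyte promoter drives Cre, so podocytes were EGFP-positive and the other cells were not. The WT podocytes, the WT glomerular endothelial cells (gECs) and the mesangial cells of leptin-deficient BTBR ob/ob mice, 23 libraries each, carried the same reporter and were used for comparison. Mesangial cells were gated after enzymatic digestion of glomeruli as CD73-positive cells that lacked PODXL, EGFP and CD45. The labels number the libraries within a group and do not tie them to animals, so p-values measure the spread between these samples.

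Mesangial cells are the contractile pericyte-like cells that hold the glomerular capillary loops together. They lay down the mesangial matrix, respond to vasoactive hormones such as angiotensin II, and signal to the adjoining endothelium through PDGF and other ligands. Immediate early genes, which appear below, encode transcription factors and feedback regulators that are induced within minutes of a growth factor, a mechanical or chemical stress, or the digestion of a tissue into single cells.

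Library depth and marker genes were checked first. Total counts, in mega-counts (M), were 24.5 to 33.4 M at 6 weeks, 22.3 to 38.1 M at 12 weeks and 15.9 to 18.8 M at 18 weeks, so all libraries of 18 weeks were shallower than all others. In every library of 6 and 18 weeks the length that could yield a read (the effective length) was 106 bases shorter than the gene length, and in every library of 12 weeks it was 84 bases shorter. Age at 12 weeks cannot be told apart from this difference in how the reads were made or processed. The comparison of 18 with 6 weeks does not cross it, but crosses the difference in depth. All ages shared a fit, so the 12 week libraries also weighed on the calls of that comparison. The steps from 6 to 12 and from 12 to 18 weeks each cross the difference in effective length. So does any course read from the signs or sizes of these steps. Levels are given as CPM, counts relative to library size after TMM scaling, and differences as log2 fold changes with their standard errors (SE). Genes count as called where the adjusted p was under 0.05 in edgeR's quasi-likelihood test of 16308 genes with sex as a covariate.

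The cells carried mesangial markers at each age. Itga8, the integrin chain that marks mesangial cells, had mean levels per length of 2235, 2169 and 2902 TPM at 6, 12 and 18 weeks. Pdgfrb, the receptor for PDGF-B, had 1252, 1166 and 1231 TPM, and the transcription factor Gata3 had 694, 698 and 648 TPM. Nt5e, which encodes the sorted antigen CD73, had means of 766 ± 32.9, 807 ± 61.5 and 762 ± 49.9 CPM (SD; n = 8, 8 and 7), a log2 fold change of -0.01 (SE 0.05, adjusted p = 0.97) at 18 against 6 weeks. Ptprc, which encodes CD45, reached at most 0.22 CPM and was not tested. Of the 9 immune markers 1 passed the filter on low counts, and their summed level lay between 1.0 and 6.0 CPM over all libraries.

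Podocyte transcripts moved with age in these sorted cells. The summed level of Nphs1, Ptpro and Thsd7a, which encode proteins of the podocyte foot process and slit diaphragm, was 2.6 to 12.3 CPM at 6 weeks (median 7.6), 2.2 to 11.2 CPM at 12 weeks (median 5.25) and 15.2 to 33.3 CPM at 18 weeks (median 28.1). The 18 week libraries lay above all libraries of both earlier ages (two-sided exact permutation tests on the means, adjusted over 69 tests of library measures: p = 0.00214 against 6 and against 12 weeks). These genes were picked after the data were seen, so the p-values are not independent support. Of 14 podocyte markers, 7 rose at 18 against 6 weeks, among them Nphs1, Podxl, Ptpro, Thsd7a, Cdkn1c and Magi2, and 2 fell, among them Npnt, with a median log2 fold change of 0.70 beside 0.01 over all tested genes. Of all tested genes 3.54% rose and 5.11% fell. The whole podocyte list summed to 795 to 994 CPM at 6 weeks and 807 to 965 CPM at 18 weeks. This sum did not pass at 18 weeks (exact permutation tests, adjusted p = 0.581 against 6 and 0.196 against 12 weeks). Synpo, an actin-binding protein that these cells expressed throughout, had means of 333 and 324 CPM within that sum and was not called. The summed glomerular endothelial marker list was 1321 to 1599 CPM at 6 weeks and 1175 to 1359 CPM at 18 weeks (adjusted p = 0.00858, exact permutation test). Of its 12 genes 2 fell (Ehd3 and Emcn, with medians of 763 and 77.3 CPM at 6 weeks). The defining endothelial genes Kdr, Pecam1 and Cdh5 were at medians of 12.5, 5.63 and 5.29 CPM at 6 weeks and did not pass the test. In RNA from pooled cells, fewer cells of a type and less RNA per cell cannot be told apart.

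**Figure D1:**
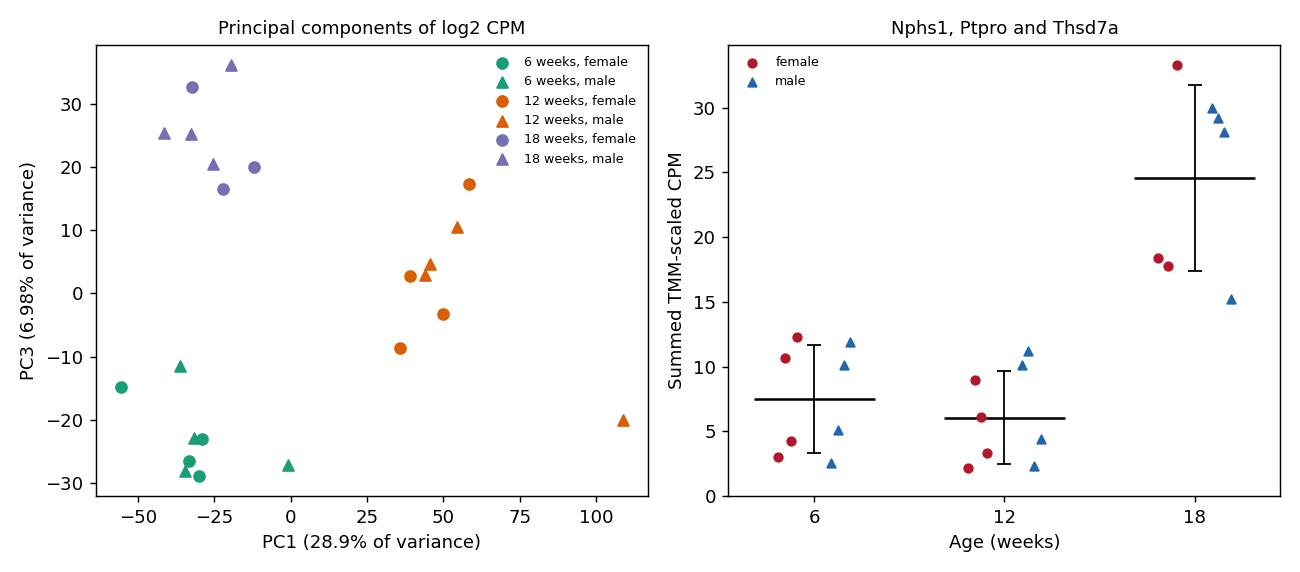
Left, the 23 libraries on principal components 1 and 3 of log2 CPM, with the share of variance on each axis; colour gives age and shape gives sex. Right, the summed CPM of Nphs1, Ptpro and Thsd7a by age in weeks, each point a library, with the mean as a line and the SD as a bar. The 12 week libraries stand apart on component 1 (mean 54.4, against -31.3 at 6 and -26.4 at 18 weeks), component 3 orders the ages (means -22.9, 0.8 and 25.3), and the podocyte transcripts are highest at 18 weeks.

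Component 1, with 28.9% of the variance, set the 12 week libraries apart, and component 3, with 6.98%, ordered the 3 ages. The libraries 12 weeks male 1, 12 weeks female 2, 6 weeks female 4 and 6 weeks male 2 lay far from the others of their age on components 1, 2 or 4, and were picked out after seeing these values. Libraries of one age correlated with each other over genes at a Pearson r of 0.912 to 0.979 on log2 CPM, and genes are not independent replicates.

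From 6 to 18 weeks, 577 genes rose and 833 fell, which is 3.54% and 5.11% of the genes tested. Among them 864 moved in one direction, that is, both the step from 6 to 12 weeks and the step from 12 to 18 weeks had the sign of the total. Of these, 362 rose (2.22% of all tested genes) and 502 fell (3.08%). Without the 4 libraries named above the count of one-direction genes was 1095, 722 of them shared with the 864. With all libraries thinned to the depth of the shallowest it was 870, 780 of them shared. With the summed level of Nphs1, Ptpro and Thsd7a as a covariate beside sex it was 194 (65 rose and 129 fell), 152 of them shared. This covariate did not overlap between 18 weeks and the earlier ages, so its part in the counts and that of age cannot be told apart by this fit. In a limma test of log2(TPM + 0.5), a scale on which the median of all genes was 0.09 higher at 18 than at 6 weeks, the split turned towards genes that rose, 1337 against 398 for the total and 807 against 231 for one direction. Of these 1038 one-direction genes 477 were shared with the 864. Without 12 weeks male 1 in the edgeR fit, the total gave 2127 called genes and the one-direction count was 1282. With each pair of ages fitted alone, 2077 of 14909 genes were called at 18 against 6 weeks, 860 up and 1217 down. In those fits 1134 genes moved in one direction.

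Most one-direction changes were under 1 on the log2 scale. The 362 genes that rose had a median total log2 fold change of 0.41, made of medians of 0.21 for the first step and 0.19 for the second. The 502 that fell had a median of -0.39, made of -0.20 and -0.16. The first step was the larger in 206 of the genes that rose and in 287 of those that fell. The first step passed its own test in 163 of the rising genes, the second in 94, and neither in 126, and among falling genes these counts were 231, 132 and 158. A change over 1 on the log2 scale was found in 73 genes that rose and 45 that fell. The 6 and 18 week libraries did not overlap in 125 of the rising and 185 of the falling genes. Over all tested genes, 211 (1.29%) had every 18 week library above every 6 week library and 306 (1.88%) had every one below. In both steps on their own, 40 genes were called with one sign, 21 rising and 19 falling (28 and 4 in the limma test of TPM).

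The genes with the largest one-direction rise were led by Grm7, Sncg, Myom2, Trim30a, Ntn1 and Rasgrf2. Grm7, a metabotropic glutamate receptor (chr6:110645581-111567230, GRCm38), had 0.548 to 2.70 CPM at 6 weeks (median 1.47), 2.42 to 7.55 at 12 weeks (median 4.85) and 5.30 to 11.3 at 18 weeks (median 9.72). It rose by a log2 fold change of 1.73 (SE 0.24, adjusted p = 1.6e-05) in the first step and 0.88 (SE 0.24, adjusted p = 0.013) in the second, and the 6 and 18 week libraries did not overlap. Rasgrf2, a calcium-regulated exchange factor for RAS and RAC, had 4.90 to 10.0 CPM at 6 weeks (median 6.56), 11.6 to 20.3 at 12 weeks (median 14.1) and 17.7 to 24.8 at 18 weeks (median 20.2). Its total log2 fold change was 1.60 (SE 0.13, adjusted p = 1.3e-07), with 1.08 in the first step and 0.52 in the second, and it was called in both.

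Trim30a, an interferon-inducible TRIM protein, rose more in the second step. It had 1.13 to 3.11 CPM at 6 weeks (median 2.24), 1.76 to 5.54 at 12 weeks (median 3.35) and 4.90 to 7.85 at 18 weeks (median 6.89), with log2 fold changes of 0.58 (SE 0.18, adjusted p = 0.023) and 1.06 (SE 0.19, adjusted p = 0.00046). Other genes called upwards in both steps were Trim2, a ubiquitin ligase, with 0.66 and 0.69, Itpr3, the type 3 IP3 receptor that releases calcium from the endoplasmic reticulum, with 0.57 and 0.68, Syp, which encodes synaptophysin, a membrane protein of small vesicles, with 0.66 and 0.55, and Naip2, a bacterial sensor of the inflammasome, with 0.63 and 0.66. Naip2 has near-identical paralogs among which its reads could be split, so its level is uncertain.

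Several of the largest rises were no longer called with the podocyte covariate. Podxl, which encodes the podocyte sialomucin podocalyxin, had 6.85 to 47.7 CPM at 6 weeks (median 20.8), 6.21 to 57.8 at 12 weeks (median 16.3) and 38.8 to 104 at 18 weeks (median 56.4), although PODXL-positive cells had been gated out. Its total was 1.38 (SE 0.43, adjusted p = 0.046), and -0.29 (adjusted p = 0.83) with the podocyte covariate. With that covariate the totals of Myom2, a sarcomeric M-band protein, went from 1.68 to 0.04 (adjusted p = 0.98), of Ezr, the membrane-actin linker ezrin, from 1.41 to 0.52 (adjusted p = 0.51), of Ntn1, the guidance cue netrin 1, from 1.60 to 1.19 (adjusted p = 0.14), of Itpr3 from 1.25 to 1.04 (adjusted p = 0.083), and of Lama3, the laminin alpha 3 chain, from 1.34 to 1.04 (adjusted p = 0.18). The totals of Grm7 (2.23), Sncg, a synuclein (1.81), Rasgrf2 (1.38), Trim30a (1.29), Trim2 (1.15) and Syp (1.11) still passed the test.

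Among the genes that fell throughout were Podxl2, Fbn2, Cpe, Ppic and Adamts12. Podxl2, endoglycan, a sialomucin of the podocalyxin family, had 2.88 to 7.00 CPM at 6 weeks (median 5.46), 1.37 to 3.66 at 12 weeks (median 2.44) and 0.908 to 1.91 at 18 weeks (median 1.33). It fell in both steps, by 1.12 (SE 0.18, adjusted p = 8.9e-05) and 0.77 (SE 0.20, adjusted p = 0.010) on the log2 scale. Fbn2, the microfibril protein fibrillin 2, had medians of 5.83, 2.43 and 1.49 CPM and fell by 1.08 (SE 0.24, adjusted p = 0.0020) and 0.82 (SE 0.26, adjusted p = 0.036). For both genes all 18 week libraries lay below all 6 week libraries.

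Ppic, the secretory-pathway peptidyl-prolyl isomerase cyclophilin C, had 34.2 to 57.1 CPM at 6 weeks (median 44.6), 17.7 to 28.3 at 12 weeks (median 23.0) and 15.5 to 20.8 at 18 weeks (median 18.8), and fell by 1.03 in the first step (SE 0.10, adjusted p = 2.1e-07) and by 1.32 in total (SE 0.11, adjusted p = 1.5e-07). Adamts12, a secreted metalloprotease, had medians of 39.9, 20.4 and 15.99 CPM and fell in both steps, by 0.83 and 0.37. Cpe, carboxypeptidase E of the secretory granule, had medians of 4.84, 1.87 and 1.17 CPM and a total of -1.89 (SE 0.29, adjusted p = 0.00019). Pid1, an adaptor that dampens insulin signalling, had medians of 33.3, 27.5 and 18.2 CPM and also fell in both steps, by 0.35 and 0.58. Col14a1 and Dcn, a fibril-associated collagen and a small proteoglycan, had totals of -1.52 and -1.497. With the podocyte covariate the total of Dcn was -1.062 and did not pass in edgeR (adjusted p = 0.178).

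Other falls lay in the second step or were less even. Rasd1, a dexamethasone-inducible RAS-like protein, had medians of 18.8, 19.1 and 6.51 CPM, with a first step of -0.04 (adjusted p = 0.93) and a second of -1.76 (SE 0.27, adjusted p = 6.4e-05). Bmpr1b, a type I BMP receptor, had medians of 7.80, 7.78 and 3.32 CPM and a second step of -1.12 (SE 0.25, adjusted p = 0.0035). Hmox1, the stress-inducible heme oxygenase, had medians of 37.1, 23.3 and 14.6 CPM and fell in both steps by 0.55 and 0.62, although 1 library of 18 weeks, at 25.1 CPM, reached into the 6 week range. With the podocyte covariate the totals of Bmpr1b (-0.92, adjusted p = 0.205) and Hmox1 (-0.999, adjusted p = 0.0844) did not pass in edgeR. H3f3c, annotated as a processed pseudogene of a histone H3.3 gene, had the largest total fall of the named genes, -4.66 (SE 0.69), with 6.00 to 60.0 CPM at 6 weeks and 0 to 7.25 at 18 weeks. Its reads can be shared with near-identical copies, so its value is uncertain.

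**Figure D2:**
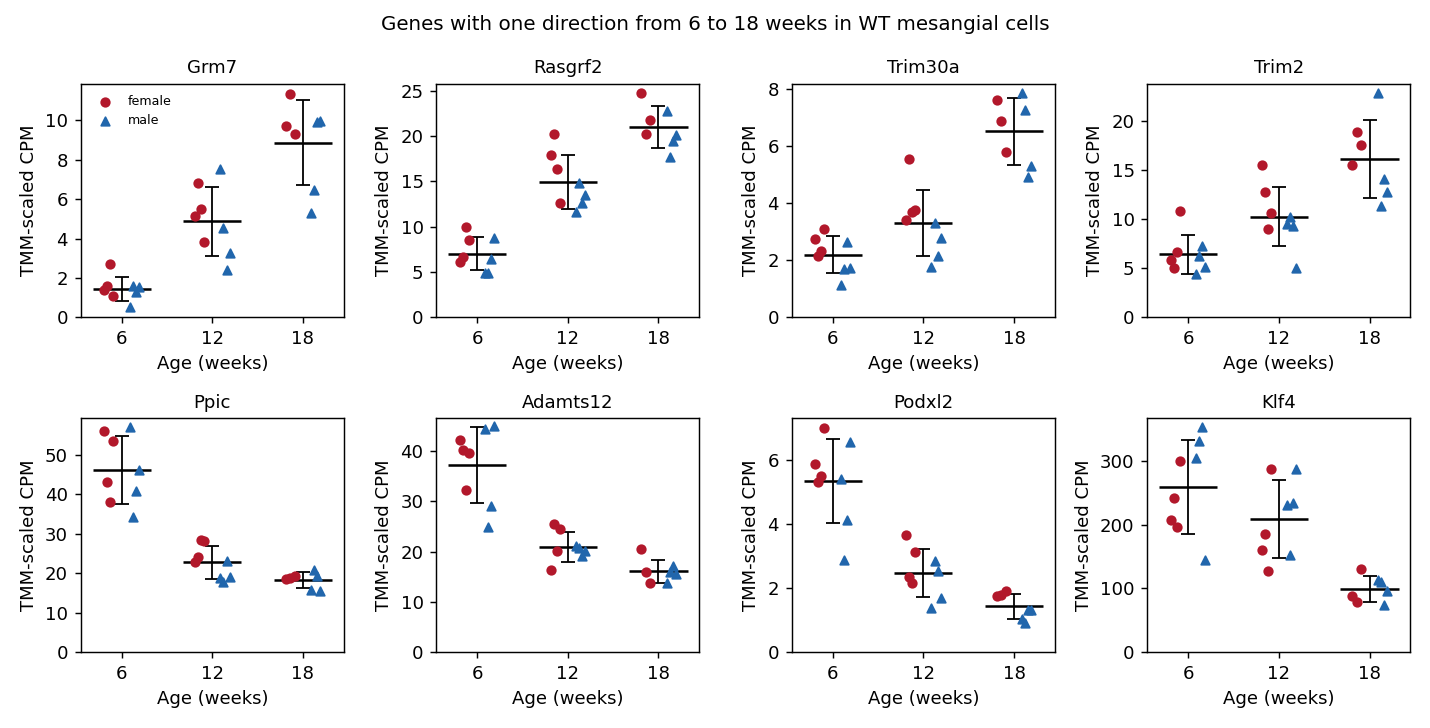
TMM-scaled CPM of 8 genes that moved in one direction, by age in weeks. Each point is a library (circles female, triangles male), the line is the mean and the bar the SD, and axes start at 0. Grm7, Rasgrf2, Trim30a and Trim2 in the upper row rise over the ages, and Ppic, Adamts12, Podxl2 and Klf4 in the lower row fall; for all 8 the 6 and 18 week libraries do not overlap.

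Immediate early genes fell at 18 weeks. Over all tested genes, 5.11% fell at 18 against 6 weeks, and 1.88% had every 18 week library below every 6 week library. Of 26 immediate early genes tested, none rose and 14 fell at 18 against 6 weeks, with a median log2 fold change of -0.73. Of the 14, 10 moved in one direction, and 7 of the 26 had every 18 week library below every 6 week library. Their summed level was 23330 to 43830 CPM at 6 weeks (median 32430), 23230 to 32480 at 12 weeks (median 27250) and 17370 to 22870 at 18 weeks (median 20760), so the 18 week libraries lay below all earlier ones (adjusted p = 0.00357 against 6 weeks, exact permutation test). The promoters of 4 that fell are shown because these genes are known targets of CREB, which binds the cAMP response element TGACGTCA or a shorter site, TGACG on one strand and CGTCA on the other. The sequences are the 250 bases before the RefSeq start on GRCm38.p6, 5′ to 3′ on the gene's strand, with the shorter sites in capitals. Fos lies at chr12:85473640-85473889 (plus strand), Fosb at chr7:19310046-19310295 (minus), Nr4a1 at chr15:101266596-101266845 (plus) and Dusp1 at chr17:26508473-26508722 (minus).
Fos: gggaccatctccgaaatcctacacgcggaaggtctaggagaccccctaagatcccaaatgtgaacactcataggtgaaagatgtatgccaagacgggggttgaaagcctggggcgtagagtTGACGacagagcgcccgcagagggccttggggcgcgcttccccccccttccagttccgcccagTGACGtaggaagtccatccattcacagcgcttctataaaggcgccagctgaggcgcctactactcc
Fosb: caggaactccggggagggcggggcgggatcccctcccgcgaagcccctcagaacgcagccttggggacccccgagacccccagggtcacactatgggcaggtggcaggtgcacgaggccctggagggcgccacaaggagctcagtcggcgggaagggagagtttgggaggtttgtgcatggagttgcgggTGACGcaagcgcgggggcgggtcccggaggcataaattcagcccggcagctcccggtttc
Nr4a1: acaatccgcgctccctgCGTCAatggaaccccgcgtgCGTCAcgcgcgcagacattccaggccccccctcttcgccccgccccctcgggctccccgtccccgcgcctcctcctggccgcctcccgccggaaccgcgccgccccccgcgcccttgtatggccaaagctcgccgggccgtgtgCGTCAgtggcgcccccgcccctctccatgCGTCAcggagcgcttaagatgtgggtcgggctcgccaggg
Dusp1: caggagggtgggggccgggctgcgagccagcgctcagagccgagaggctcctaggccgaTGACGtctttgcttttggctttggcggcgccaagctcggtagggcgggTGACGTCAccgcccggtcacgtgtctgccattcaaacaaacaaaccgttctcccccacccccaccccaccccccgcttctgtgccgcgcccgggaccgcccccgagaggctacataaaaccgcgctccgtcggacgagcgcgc

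In these windows Fos held shorter sites from bases -129 and -66, Fosb from -60, and Nr4a1 from -233, -213, -69 and -40. Dusp1 held the full element, which contains the shorter site on both strands, from -143 and a further shorter site from -191. RefSeq promoters were matched for 21 of the 26 genes. The shorter site was present in 11 of the 21 (52.4%), in 8 of the 14 that fell at 18 weeks (57.1%), in 26.9% of the promoters of tested genes and in 17.9% of all promoters. The full element was present in 2 of the 21, Dusp1 and Btg2, and in 2.79% of the promoters of tested genes. These matches describe letters in a window and are not binding sites.

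The AP-1 subunits were among the most abundant transcripts. Fos had 4295 to 6651 CPM at 6 weeks (median 5721), 3559 to 5520 at 12 weeks (median 4289) and 3084 to 4392 at 18 weeks (median 3916), a total of -0.54 (SE 0.10, adjusted p = 0.0014). Jun fell by 0.72 (SE 0.12, adjusted p = 0.00030) and Jund by 0.71 (SE 0.10, adjusted p = 7.8e-05), both mostly in the first step. Fosb had medians of 2986, 2816 and 1463 CPM, with a first step of -0.05 (adjusted p = 0.84) and a second of -0.97 (SE 0.15, adjusted p = 8.6e-05), and its 6 and 18 week libraries did not overlap.

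The orphan nuclear receptors Nr4a1 and Nr4a3 fell in the second step. Nr4a1 had 844 to 2677 CPM at 6 weeks (median 1323), 973 to 2245 at 12 weeks (median 1324) and 590 to 888 at 18 weeks (median 671), with steps of 0.05 (adjusted p = 0.87) and -1.11 (SE 0.18, adjusted p = 0.00019). Nr4a3 had steps of 0.00 and -1.60 (SE 0.30, adjusted p = 0.00073), and Nr4a2 had a total of -1.11 that missed the threshold (adjusted p = 0.052). Klf4, a Kruppel-like factor, had medians of 270, 208 and 95.7 CPM and a second step of -1.08 (SE 0.19, adjusted p = 0.00038). Klf2, which responds to flow in endothelium, instead fell in the first step, by 0.90 (SE 0.18, adjusted p = 0.00063).

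Dusp1 and Zfp36, which limit the response, fell as well. Dusp1, a phosphatase that switches off MAP kinases, had 2836 to 4562 CPM at 6 weeks (median 3644), 2328 to 3247 at 12 weeks (median 2994) and 1507 to 2398 at 18 weeks (median 2201). It was called in both steps, by -0.36 (SE 0.10, adjusted p = 0.0082) and -0.42 (SE 0.10, adjusted p = 0.0056). Zfp36, which speeds the decay of cytokine mRNAs, had a total of -0.77 (SE 0.15, adjusted p = 0.0022). Genes of the list that did not pass included Egr1 (-0.47, adjusted p = 0.12), Junb (-0.34), Myc (-0.42) and Ier2 (-0.03). With the podocyte covariate 6 of the 26 fell, with a median of -0.63, and without the 4 libraries that stood apart 15 fell. The heat shock list, which is induced by protein damage, had 1 gene that fell of 14 (Bag3), and its summed level spread from 2887 to 15580 CPM at 18 weeks against 13020 to 17630 CPM at 6 weeks (adjusted p = 0.0194, exact permutation test).

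**Figure D3:**
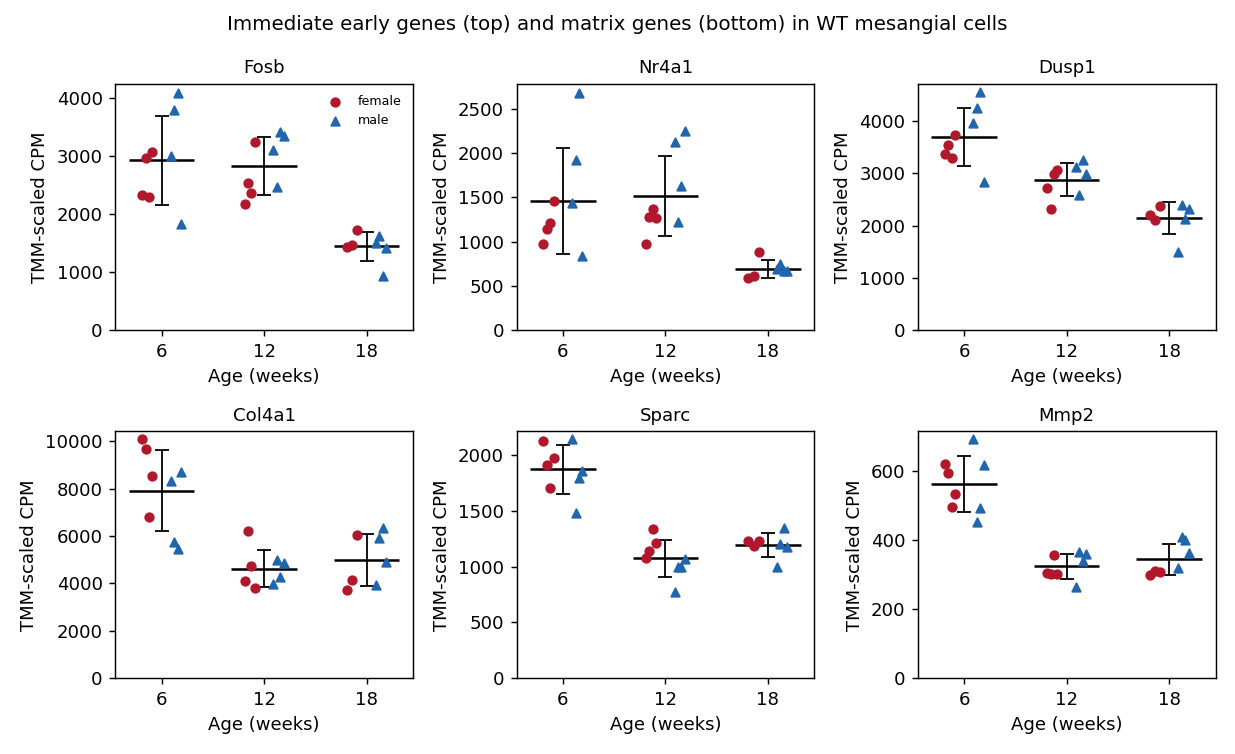
TMM-scaled CPM of the immediate early genes Fosb, Nr4a1 and Dusp1 (top) and the matrix genes Col4a1, Sparc and Mmp2 (bottom) by age in weeks. Each point is a library (circles female, triangles male), with the mean as a line and the SD as a bar. Fosb and Nr4a1 drop between 12 and 18 weeks and Dusp1 in both steps, whereas the matrix genes drop between 6 and 12 weeks (Sparc from a median of 1885 to 1070 CPM).

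Matrix genes fell as well, mainly in the first step, which crosses the 12 week difference in effective length. Of 19 basement membrane genes, 8 fell and 2 rose at 18 against 6 weeks, with a median of -0.25; 9 fell and none rose from 6 to 12 weeks, whereas 3 rose and none fell from 12 to 18 weeks. At 18 against 6 weeks 3.54% of all tested genes rose and 5.11% fell. From 6 to 12 weeks 12.9% of all tested genes rose and 12.8% fell, and from 12 to 18 weeks 7.47% rose and 8.43% fell. The summed markers of other endothelium moved beside them, from 1303 to 1667 CPM at 6 weeks to 875.5 to 1393 CPM at 12 weeks (adjusted p = 0.00477, exact permutation test) and 1073 to 1406 CPM at 18 weeks (adjusted p = 0.0148 against 6 weeks, exact permutation test), and their part in the matrix values was not tested. Of the 6 markers in that list 2 fell and none rose from 6 to 12 weeks, while their median log2 fold change was 0.39. From 12 to 18 weeks the median was -0.29, so in both steps it had the opposite sign to the sum. At 18 against 6 weeks 1 fell, Plvap. Col4a1 and Col4a2, the collagen IV chains of the mesangial matrix, had totals of -0.65 (SE 0.15, adjusted p = 0.0056) and -0.61 (SE 0.11, adjusted p = 0.0013). In the limma test of TPM 4 of the 19 fell and 3 rose, and the total of Col4a2 was -0.326 (adjusted p = 0.0819). Col4a1 had 5468 to 10100 CPM at 6 weeks (median 8436), 3800 to 6227 at 12 weeks (median 4497) and 3710 to 6351 at 18 weeks (median 4925), so the ages overlapped. Sparc, a collagen-binding matricellular protein, had 1481 to 2145 CPM at 6 weeks, 771 to 1336 at 12 weeks and 994 to 1343 at 18 weeks, with no overlap between 6 and 18 weeks and a first step of -0.81 (SE 0.08, adjusted p = 2.2e-07).

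Other genes of the list also fell. Nid1, which joins laminin to collagen IV, fell by 0.39 (SE 0.07, adjusted p = 0.00077), the laminin chains Lamc1 by 0.40 and Lama4 by 0.46, and the proteoglycan Agrn by 0.25. Lama1 (-1.33, adjusted p = 0.036) was at a median of only 2.28 CPM at 6 weeks. The genes that rose were Col4a3 and Col4a4, chains of the glomerular basement membrane that podocytes make. Col4a3 had medians of 20.7, 16.7 and 31.4 CPM and Col4a4 12.1, 11.01 and 19.2 CPM, with second steps of 1.00 (SE 0.19, adjusted p = 0.00072) and 0.84 (SE 0.18, adjusted p = 0.0022). With the podocyte covariate their totals went from 0.81 to 0.095 and from 0.89 to 0.27 and neither passed, while 3 basement membrane genes fell, Col4a1, Col4a2 and Sparc.

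Of 29 interstitial matrix genes none rose and 8 fell (Col3a1, Col5a1, Col5a2, Col14a1, Fbn2, Postn, Bgn and Dcn), with a median of -0.35. Over all tested genes 3.54% rose and 5.11% fell. Col5a1 and Col5a2, chains of the collagen V that nucleates fibrils, had totals of -0.42 (SE 0.07, adjusted p = 0.00030) and -0.52 (SE 0.09, adjusted p = 0.00033), and their 6 and 18 week libraries did not overlap. The fibronectin gene Fn1 (-0.43, adjusted p = 0.13) and the collagen I chain Col1a2 (-0.07, adjusted p = 0.79) did not pass. Of 24 matrix modifiers and proteases 8 fell and 1 rose, with a median of -0.17. Mmp2, the collagen IV-degrading gelatinase A, had 452 to 692 CPM at 6 weeks (median 562), 265 to 365 at 12 weeks (median 322) and 300 to 407 at 18 weeks (median 318), a first step of -0.80 (SE 0.09, adjusted p = 6.3e-07). Its membrane-bound activator Mmp14 fell by 0.45 and the collagen chaperone Serpinh1 by 0.47. Adamts5, an aggrecanase and mesangial marker, was the one that rose, by 0.21. With the podocyte covariate 3 of the interstitial genes and 3 of the modifiers fell.

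The ligands Tgfb1 and Tgfb2, known to drive matrix synthesis in mesangial cells, fell. Tgfb1 had 189 to 218 CPM at 6 weeks (median 208), 108 to 187 at 12 weeks (median 147) and 142 to 174 at 18 weeks (median 167), and fell by 0.35 in total (SE 0.08, adjusted p = 0.0046). Tgfb2 had medians of 15.4, 10.0 and 7.89 CPM and fell by 1.12 (SE 0.19, adjusted p = 0.00045). Of the 25 genes of the TGF-beta and BMP list 6 fell, among them the feedback inhibitor Smad7 and the BMP-induced Id1 and Id4, and 2 rose: Ltbp4, which anchors latent TGF-beta in the matrix (0.48, SE 0.09, adjusted p = 0.0010), and the ligand Bmp7, which was at a median of 0.378 CPM at 6 weeks and 1.20 CPM at 18 weeks. The sixth, the BMP antagonist Grem1, reached at most 0.904 CPM at 6 weeks. Beside these calls, 3.54% of all tested genes rose and 5.11% fell. With the podocyte covariate none of the 8 passed in edgeR (adjusted p = 0.0634 for Grem1 to 0.733 for Bmp7), with totals of -0.357 for Tgfb1, -0.738 for Tgfb2 and 0.575 for Bmp7.

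**Figure D4:**
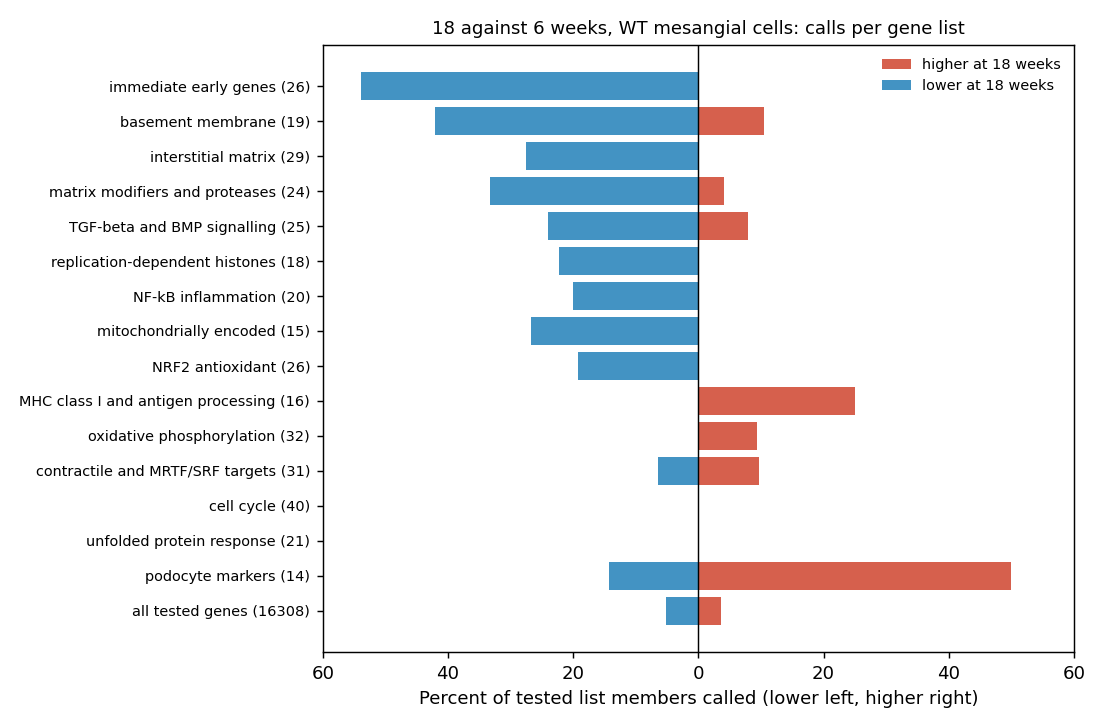
Percent of the tested genes of each list that were called lower (bars to the left) or higher (bars to the right) at 18 against 6 weeks, with the number of tested genes in brackets and all tested genes in the lowest row. The bar of the immediate early genes reaches farthest to the left (14 of 26) and that of the podocyte markers farthest to the right (7 of 14), while the cell cycle and unfolded protein response lists have no bar.

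Inflammatory genes of the NF-kB list fell in the second step. From 6 to 12 weeks 4 of 20 rose and 1 fell, and from 12 to 18 weeks none rose and 8 fell. Over all tested genes 12.9% rose and 12.8% fell in the first step, and 7.47% rose and 8.43% fell in the second. Of the 20, 3 were called with a peak at 12 weeks, as were 859 of all 16308 tested genes. Each step crosses the 12 week difference in effective length. At 18 against 6 weeks none rose and 4 fell, where 5.11% of all tested genes fell. With the podocyte covariate the 4 totals were -2.094 (Il6, adjusted p = 0.0518), -1.726 (Tnfaip3, 0.0976), -0.972 (Ptgs2, 0.219) and -1.349 (Ccl2, 0.381), beside -1.54, -1.70, -0.89 and -1.63 without it. Il6, the cytokine interleukin 6, had 7.98 to 86.2 CPM at 6 weeks (median 37.1), 30.8 to 156 at 12 weeks (median 65.4) and 9.04 to 19.7 at 18 weeks (median 10.9). Its second step was -2.42 (SE 0.40, adjusted p = 0.00021), and the 12 and 18 week libraries did not overlap. Tnfaip3, the NF-kB feedback inhibitor A20, had medians of 158, 184 and 52.2 CPM and a second step of -1.94 (SE 0.36, adjusted p = 0.00071), and Ptgs2, the inducible cyclooxygenase, had medians of 109, 135 and 56.7 CPM and a second step of -1.22. Ccl2 was called as well but stayed below 1.60 CPM.

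The antigen presentation list moved upwards in the second step. From 12 to 18 weeks 10 of its 16 genes rose and none fell, from 6 to 12 weeks none rose and 5 fell, and in total 4 rose (H2-K1, H2-Q6, Tap2 and Psmb8). Over all tested genes 7.47% rose from 12 to 18 weeks, 12.8% fell from 6 to 12 weeks and 3.54% rose in total. Psmb8, a subunit of the immunoproteasome, had 12.2 to 15.6 CPM at 6 weeks (median 14.0), 9.44 to 16.1 at 12 weeks (median 14.1) and 18.0 to 24.2 at 18 weeks (median 19.5), with no overlap between 18 weeks and either earlier age and a total of 0.58 (SE 0.09, adjusted p = 0.00027). H2-K1 rose by 0.41 (SE 0.09, adjusted p = 0.0065), whereas B2m, the light chain of the same complex, had -0.22 (adjusted p = 0.24). H2-K1 and H2-Q6 belong to a family of near-identical genes, so their counts are uncertain. With the ob/ob libraries in the fit none of the 4 passed in edgeR (adjusted p = 0.387 for H2-K1, 0.191 for H2-Q6, 0.0935 for Tap2 and 0.0789 for Psmb8) at fold changes near those above, and with the podocyte covariate Psmb8 alone rose. Of 27 interferon response genes 2 rose (Ifit2 and Gbp2) and 2 fell (Usp18 and Rsad2).

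Genes of the contractile and vasoactive lists changed little. Of 31 contractile genes 3 rose (Tpm2, Myh9 and Mylk) and 2 fell (Tagln2 and Itga5). The shares over all tested genes were 3.54% and 5.11%. Tpm2, beta-tropomyosin, had 97.4 to 158 CPM at 6 weeks (median 121), 146 to 191 at 12 weeks (median 161) and 153 to 235 at 18 weeks (median 219), and was called in both steps, by 0.39 (SE 0.09, adjusted p = 0.0030) and 0.32 (SE 0.10, adjusted p = 0.024). Mylk, the myosin light chain kinase, rose by 0.19 (SE 0.04, adjusted p = 0.0079) with no overlap between 6 and 18 weeks. Of 34 vasoactive receptors and channels 3 rose, Kcnj8 and Abcc9, the pore and the regulatory subunit of the vascular KATP channel (0.72 and 0.35), and the phosphodiesterase Pde3a (0.14), and Ptger4, a prostaglandin E2 receptor, fell by 0.23. The angiotensin II receptor Agtr1a had 0.04 (SE 0.07, adjusted p = 0.82) and the endothelin receptor Ednra -0.02 (SE 0.07, adjusted p = 0.92). With the podocyte covariate Tpm2 still rose, whereas the other 4 contractile genes (adjusted p = 0.0994 to 0.256) and the 4 vasoactive genes (adjusted p = 0.116 to 0.601) did not pass.

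Calls in the growth factor lists went both ways. At 18 against 6 weeks, 3.54% of all tested genes rose and 5.11% fell. Of 19 genes of PDGF and FGF signalling, the ligands Pdgfc and Pdgfd rose by 0.51 (SE 0.08, adjusted p = 0.00019) and 0.45 (SE 0.07, adjusted p = 0.00021), and Spry1, a feedback inhibitor of receptor tyrosine kinases, fell by 0.57 (SE 0.14, adjusted p = 0.0087). Pdgfrb itself had -0.09 (adjusted p = 0.50). Among 13 imprinted growth genes, 3 rose and 3 fell: Cdkn1c, the cell cycle inhibitor p57 that podocytes also express, had medians of 9.93, 11.9 and 18.3 CPM and rose by 0.86 (SE 0.12, adjusted p = 4.4e-05), with no overlap between 6 and 18 weeks, whereas Peg3 and Ndn, both maternally silenced, fell by 0.61 and 1.00. Cdkn1c kept 0.86 (adjusted p = 0.015) with the podocyte covariate. In the IGF and growth hormone list of 13, Igf2r rose and Igfbp7, Irs2 and Socs2 fell, with -0.90 for the insulin receptor substrate Irs2. The Wnt and Notch list of 29 had 1 that rose, the mural cell receptor Notch3 (0.23), and 3 that fell. Calls were few in this list and in the PDGF and FGF list, and neither was tested as a set. With the podocyte covariate several genes named here did not pass in edgeR. They were Pdgfd (adjusted p = 0.0577), Peg3 (0.089), Igf2r (0.211), Igfbp7 (0.0951), Irs2 (0.0697), Socs2 (0.166) and Notch3 (0.16).

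None of the 40 cell cycle genes was called at 18 against 6 weeks. Mki67, the proliferation marker, spread from 12.5 to 81.9 CPM at 6 weeks and from 14.3 to 61.0 CPM at 18 weeks. Of 18 replication-dependent histone genes, 14 fell from 6 to 12 weeks, 4 rose from 12 to 18 weeks and 4 had fallen in total, among them Hist1h1c with medians of 135, 74.2 and 82.1 CPM. Over all tested genes 12.8% fell from 6 to 12 weeks and 7.47% rose from 12 to 18 weeks. Each of these steps crosses the 12 week difference in effective length. With the podocyte covariate none of the 18 was called at 18 against 6 weeks. Of 26 NRF2 antioxidant genes 5 fell, Hmox1, Gclm, Gpx4, Sod3 and Ftl1. Of 32 nuclear genes of oxidative phosphorylation 3 rose (Ndufa5, Sdha and Cox5b), and of 15 genes encoded by the mitochondrial genome 4 fell (mt-Nd1, mt-Nd2, mt-Nd4 and mt-Co1, by 0.31 to 0.40). No gene of the 21 of the unfolded protein response was called. Among all tested genes, 3.54% rose and 5.11% fell at 18 against 6 weeks. With the podocyte covariate none of the 5 NRF2 genes passed in edgeR (adjusted p = 0.0771 for Gclm to 0.248 for Gpx4). The 3 oxidative phosphorylation genes (0.11 for Ndufa5 to 0.248 for Cox5b) did not pass either. Nor did the 4 mitochondrially encoded genes (0.0627 for mt-Nd1 to 0.384 for mt-Co1).

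The step from 6 to 12 weeks held the most calls, with 2107 genes up and 2080 down (2818 and 1340 in the limma test of TPM), against 1218 and 1375 from 12 to 18 weeks. The size of the 2 steps differed in 3998 genes. In 1569 genes both steps were called with opposite signs, 859 with a peak and 710 with a trough at 12 weeks, against 40 called in both with one sign. The largest of these changes had a form that set all libraries of 12 weeks against all others. Rorb, a retinoid-related orphan receptor, had 0.0321 to 1.09 CPM at 6 weeks, 866 to 1334 at 12 weeks and 0.0531 to 0.539 at 18 weeks. Rps12, a ribosomal protein gene, Mir6236, Rny3 and the lincRNA RP24-115G23.2 were at 0 counts in every library of 6 and 18 weeks and at medians of 15.4, 15.3, 9.81 and 10.2 CPM at 12 weeks.

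Genes of the mitochondrial genome were among them. mt-Co3 had 940 to 1195 CPM at 6 weeks, 0 to 110 at 12 weeks and 844 to 1050 at 18 weeks, and mt-Atp6 had medians of 443, 95.9 and 744 CPM. Rps27rt, a retrocopy of a ribosomal protein gene, had medians of 52.0, 0.688 and 51.0 CPM, and can share reads with its parent gene. Chosen after their values were seen, mt-Co2 had means of 22.1, 620 and 24.5 CPM, and Tmf1, a Golgi-associated coactivator, had 106 ± 3.98, 2163 ± 266 and 109 ± 7.53 CPM (mean ± SD; n = 8, 8 and 7), with log2 steps of 4.35 and -4.31.

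Among genes with a peak at 12 weeks, pseudogenes and short genes made larger shares than among all tested genes. Protein-coding genes made up 55.6% of the 859 and pseudogenes 12.7%, against 79.6% and 4.86% of all tested genes, and 25.7% of them had a length under 1000 bases, against 15.3%. Their median level at 6 weeks was 3.72 CPM, against 11 CPM over all genes. Among one-direction genes, 90.1% of those that rose and 97.4% of those that fell were protein-coding, and 9.39% and 6.97% were under 1000 bases. Of the 859 genes, 319 (37.1%) also peaked in WT podocytes, where they made 46.1% of 692 such genes, and 382 (44.5%) in WT gECs (57.5% of 664). Of the 710 trough genes, 119 (16.8%) were shared with podocytes and 167 (23.5%) with gECs.

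**Figure D5:**
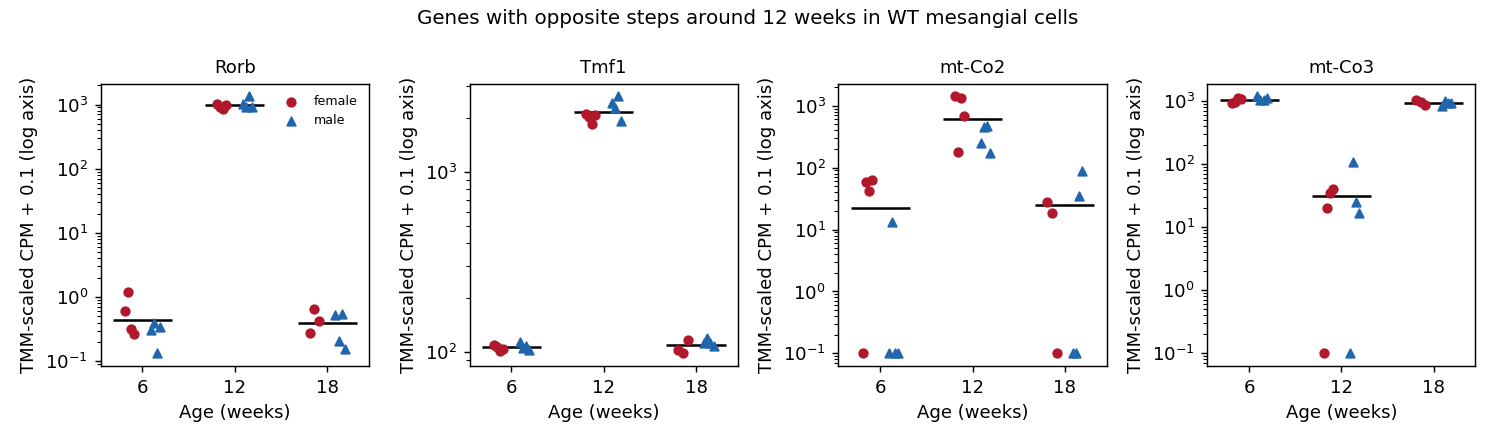
TMM-scaled CPM plus 0.1 on a log axis for Rorb, Tmf1, mt-Co2 and mt-Co3 by age in weeks, each point a library (circles female, triangles male) and the line the arithmetic mean. Rorb, Tmf1 and mt-Co2 are high and mt-Co3 low in the 12 week libraries, whose effective lengths differ from those of the other ages.

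No gene of 17819 passed the test of a sex difference in the change from 6 to 18 weeks in edgeR. The smallest adjusted p was 0.103, and 695 genes (3.90%) had an unadjusted p under 0.05. DESeq2 called 5. Tested alone, females had 242 called genes (66 up, 176 down) and males 351 (153 up, 198 down). Among the genes with the smallest p were Kcnmb1, the beta subunit of the BK potassium channel, with log2 changes of -0.61 in females and 0.66 in males, Klhl8 (0.63 and -0.14) and the proteoglycan xylosyltransferase Xylt1 (-0.94 and -0.09). Among immediate early genes Fosb had -0.79 in females and -1.21 in males, and Nr4a1 -0.79 and -1.30.

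The change from 6 to 18 weeks was set against the mean of the same change in WT podocytes and gECs, with 69 libraries in the fit. The fit treated these libraries as independent. The same library number was absent at 18 weeks in each cell type, and the labels do not say whether same-numbered libraries share an animal. It differed in 243 genes (1.25% of 19407), in 130 towards higher and in 113 towards lower values in mesangial cells (217 and 95 in the limma test of TPM). Ezr (difference 1.92, SE 0.30, adjusted p = 5.7e-05), Trim2 (1.74, SE 0.32, adjusted p = 0.00047), Myom2 (2.26), Plce1, a phospholipase C of podocytes (1.84), Col4a4 (1.67) and Ntn1 (1.59) rose more in mesangial cells. For Myom2, Ezr, Plce1 and Col4a4 part of the difference came from falls in gECs, of 1.27, 0.84, 1.26 and 1.33, and their podocyte changes were between -0.30 and 0.04 with no call. Of 14 podocyte markers 10 fell in gECs, where 4.16% of all tested genes fell, and 8 differed upwards in mesangial cells, against 0.67% of all tested genes. Of 12 mesangial markers 7 rose in podocytes (median 1.08) and 3 in gECs (median 0.66), and none fell in either. Over all 19407 tested genes 326 rose in podocytes and 333 in gECs. In the difference 2 of these 12 markers were lower in mesangial cells, against 0.582% of all tested genes.

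Podxl2 fell in mesangial cells and was not called in the others, and the difference was -2.26 (SE 0.41, adjusted p = 0.00041), with 0.39 in podocytes (adjusted p = 0.63) and 0.30 in gECs (adjusted p = 0.76). Cpe (-2.16) and Rasd1 (-1.55) differed likewise. Postn, the matricellular protein periostin, differed by -2.92 (SE 0.58, adjusted p = 0.0014) with a fall of 0.41 in mesangial cells, which did not pass in the limma test of TPM (adjusted p = 0.229) or with the ob/ob libraries in the fit (0.158), and a rise of 2.96 in gECs, and Rtn4rl2 and Lrfn1, both neuronal cell surface proteins, by -1.97 and -1.74. In the limma test of TPM the differences of Rtn4rl2 (-0.424, adjusted p = 0.312), Lrfn1 (-0.511, adjusted p = 0.233) and Podxl2 (-1.0, adjusted p = 0.164) did not pass. With no filter on low counts Rtn4rl2 and Lrfn1 did not pass either (adjusted p = 0.0507 and 0.0792), nor did Rtn4rl2 in DESeq2 (0.0962) or after thinning (0.0907). Ppic differed by -0.93 (SE 0.15, adjusted p = 8.5e-05). Of the 26 immediate early genes 5 differed towards a larger fall in mesangial cells, against 0.582% of all tested genes. Klf4 differed by -1.05 (SE 0.22, adjusted p = 0.0038) and Klf2 by -0.93 (adjusted p = 0.020), whereas the differences of Fosb (-0.76, adjusted p = 0.098), Nr4a1 (-0.79, adjusted p = 0.21) and Dusp1 (-0.53, adjusted p = 0.067) did not pass. In podocytes, where 4.3% of all tested genes fell, 3 of the 26 fell, with a median of -0.32, and in gECs none, with a median of -0.10. Basement membrane genes fell in gECs as well: 10 of the 19, Col4a1 by 0.51 and Sparc by 0.52, and the difference was -0.23 (adjusted p = 0.77) for Col4a1 and -0.24 (adjusted p = 0.56) for Sparc.

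The same interval in mesangial cells of BTBR ob/ob mice was fitted with the WT libraries, 46 in all. The change from 6 to 18 weeks differed between genotypes in 86 genes (0.487% of 17669), 44 towards higher and 42 towards lower values in ob/ob. Immediate early genes fell in ob/ob cells too, 21 of 26 with a median of -1.15, where 7.44% of all tested genes fell, with -1.73 for Fosb, -1.94 for Nr4a1 and -1.30 for Dusp1, and 1 of the 26 differed between genotypes. Rasgrf2 rose by 2.33 in ob/ob (SE 0.18, adjusted p = 4.4e-13), and the difference from WT, 0.75 (SE 0.24), did not pass (adjusted p = 0.21). Grm7 had 0.84 (SE 0.35, adjusted p = 0.12) in ob/ob and a difference of -1.76 (SE 0.48, adjusted p = 0.085). Postn fell by 2.17 in ob/ob and differed from WT by -1.77 (SE 0.26, adjusted p = 0.00023). Col4a4, which rose in WT, had -0.10 in ob/ob (adjusted p = 0.79), a difference of -1.002 (SE 0.25, adjusted p = 0.047). With the podocyte covariate its WT total was 0.271 and did not pass in edgeR (adjusted p = 0.563). Of the 14 podocyte markers none rose and 2 fell in ob/ob (median 0.03). Their median difference from WT was -0.48, with 1 called. The part of podocyte transcripts in the Col4a4 difference was not tested.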

How the data were processed

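Bulk RNA-seq libraries of sorted cells (SMART-Seq Stranded kit) were read from the deposited RSEM gene tables. According to the processing notes and methods, the authors used FastQC 0.11.5 on the reads and ran Bowtie2 2.3.3.1 within RSEM 1.3.0 on mm10; the annotation release is not given in the sources used here. The deposited expected counts are estimated reads per gene with no normalization, and the deposited TPM values were scaled by the authors' RSEM run to gene length and a common sum. Of 46517 gene entries, 46005 were matched to GENCODE M21 for position. Here expected counts were rounded, filtered with filterByExpr, scaled by TMM and tested with edgeR 4.0.16 (R 4.3.3, quasi-likelihood test, two-sided, Benjamini-Hochberg adjustment over all tested genes, sex as a covariate); limma 3.58.1 (pseudocount 0.5 on TPM) and DESeq2 1.42.0 gave alternatives. Steps were tested on simulated data. The members, the gene lists and the rules were chosen with earlier results of these data known.

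Named genes were those at 5 CPM or more in an age with the largest one-direction totals (12 each way), the largest smaller step among genes called in both steps (6 each way), the extremes of each step and of opposite steps (5 each way), the smallest p of the sex interaction (4), the largest differences between cell types among one-direction genes (6 each way), and members of described lists. Library measures were compared by two-sided exact permutation tests, adjusted over 69 tests; the smallest p they can give is 0.000155. Replicate numbers were not used as pairs, and the alternatives are described in the closing section. Some genes that these rules or lists select are not reported here.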

Additional observations from a re-analysis of the deposited data

Results flagged for a closer look

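Among 168 groups of libraries checked for a value far from the others by Dixon's criterion, 12 (7.14%) had one, and chance gives about 1 in 20. In 6 weeks male 2 the summed mesangial markers were lowest, at 19390 CPM, and the summed distal nephron markers highest, at 12.3 CPM. In 18 weeks male 1 the summed renin cell markers stood at 31.1 CPM, and in 18 weeks female 4 the parietal epithelial markers at 21.7 CPM. Single genes with a far value were Dcn in 6 weeks male 1 (22.44 CPM), Dusp1 in 18 weeks male 1 (lowest, 1507 CPM), Hmox1 in 18 weeks male 2 (25.15 CPM), Itpr3 in 6 weeks male 3 (6.092 CPM), Ntn1 in 12 weeks female 2 (6.34 CPM), Prr7, a membrane adaptor, in 12 weeks male 3 (5.548 CPM), Sncg in 18 weeks male 1 (17.64 CPM) and Trim2 in 6 weeks female 4 (10.82 CPM).

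Differences between groups were found by interaction tests. The change from 6 to 18 weeks differed from the other cell types in 243 genes and that from 6 to 12 weeks in 573, and 86 genes changed differently in ob/ob and WT. In mesangial cells minus the other cell types, the log2 differences from 6 to 18 weeks were 2.257 for Myom2, 1.924 for Ezr, 1.843 for Plce1, 1.743 for Trim2, 1.67 for Col4a4 and 1.595 for Ntn1. They were -2.92 for Postn, -2.263 for Podxl2, -2.162 for Cpe, -1.968 for Rtn4rl2, -1.741 for Lrfn1 and -1.555 for Rasd1. The summed podocyte transcripts were higher at 18 weeks in the mesangial libraries, and their part in these differences was not tested. Of 12 mesangial markers 7 rose in the podocyte libraries and 3 in the gEC libraries, with none falling. Over all 19407 tested genes 326 and 333 rose. The part of mesangial transcripts in these differences was not tested either.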

How the results depend on the processing

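The podocyte transcripts as a covariate were chosen after seeing the data. With them 549 genes were called at 18 against 12 weeks, 252 at 18 against 6 weeks and 194 in one direction. In both steps 1 gene was called with one sign and 439 with opposite signs, and 2231 had steps that differ. The totals of Podxl (-0.289), Plce1 (-0.012), Vegfa (-0.091) and Nphs1 (-0.539) reversed. Nphs1 is itself part of the covariate, as are Ptpro and Thsd7a, which lost their calls. The change in these genes was therefore built in. Of the named fold changes, 121 lost their call with this covariate and 60 kept it or stayed uncalled; 47 of 200 lost it in the limma test of TPM, 30 with ob/ob libraries in the fit, 28 with the replicate block, 20 with no filter, and 47 of 188 in at least 1 fit that left out a library. Genes called in both steps with one sign numbered 21 with no filter beyond 1 count, 22 with ob/ob libraries in the fit and 25 with the replicate block, which gave 1105 genes at 18 against 6 weeks. The block was an alternative only, because same-numbered libraries did not deviate together (22 pairs, correlations of -0.255 to 0.152, 1 over 0.1). With each pair of ages alone 990 genes had opposite signs, and the difference of the 2 steps could not be fitted. DESeq2 called 5 genes for sex, 515 for cell type over 6 to 18 weeks and 159 for genotype, and limma on TPM called 2 for sex. The cause of these shifts was not tested.

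Leaving out 1 library at a time gave 3595 to 4581 genes at 12 against 6 weeks, 1857 to 2991 at 18 against 12 weeks, 1118 to 2127 at 18 against 6 weeks, 703 to 1282 in one direction, 25 to 46 with one sign, 1194 to 1882 with opposite signs, 3491 to 4372 with steps that differ and 0 to 2 for sex. The 2127 came without 12 weeks male 1, the 25 without 18 weeks female 3, and 26 genes had one sign without 12 weeks male 4 or without 18 weeks male 3. The 2 for sex came without 18 weeks female 4. Depth limits the genes near the filter, and the shallower 18 week libraries carry the larger counting error.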
